A study of Mus musculus with 2 samples.

Results

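The C-type lectin family was taken here as every gene in the deposited matrix whose symbol is Clec followed by a number, an optional letter and an optional further number, or Cd209 followed by a letter. This rule found 37 of the 27998 genes, and it reads gene symbols alone. The cells came from the whole mesentery of 2 untreated male wild-type C57BL/6N mice, dissociated with Liberase DH and sequenced as 1 droplet 3′ library (Chromium V2 chemistry) per mouse. There was 1 group of animals and no treatment, so the comparisons below are between cell classes within the same 2 libraries. The labels give no age.

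C-type lectin receptors bind carbohydrates, lipids or proteins through a shared fold that in many members needs calcium. Several of the Clec4 members, among them Clec4e, Clec4d and Clec4n, are activating receptors of myeloid cells that signal through the Fc receptor gamma chain Fcer1g, the kinase Syk and the Card9, Bcl10 and Malt1 complex. Clec4a2 and Clec12a carry inhibitory motifs that recruit phosphatases such as Ptpn6. The mouse Cd209 genes are relatives of human DC-SIGN, Clec2 members are ligands of receptors on natural killer cells, and Clec3b and Clec11a are secreted.

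Most members lie in 3 groups of neighbours on the mouse genome (GRCm38, GENCODE M21 annotation). Chromosome 6 holds 22 of the 37, of which 9 Clec4 genes lie between 122921848 and 123289870 and 10 genes from Clec2h to Clec1a lie between 128662385 and 129452000. All 7 Cd209 genes lie on chromosome 8 between 3743397 and 4137707. Clec3b lies alone on chromosome 9 (123150946 to 123157432), Clec11a on chromosome 7 (44302687 to 44306902), Clec10a on chromosome 11 (70156197 to 70170834), Clec14a on chromosome 12 (58264720 to 58269290) and Clec16a on chromosome 16 (10545339 to 10744878).

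The 250 bases before the RefSeq start of 5 Cd209 genes are shown because 4 of these genes were highest in macrophage-like cells and the fifth, Cd209a, in dendritic-like cells (RefSeq, GRCm38.p6, each written 5′ to 3′ on the strand of its gene). Capitals mark TGANTCA, the AP-1 site, and TATAAA, the TATA box, on either strand, read as TTTATA where it lies on the other strand in Cd209a.
Cd209f (chr8:4105765-4106014, minus strand): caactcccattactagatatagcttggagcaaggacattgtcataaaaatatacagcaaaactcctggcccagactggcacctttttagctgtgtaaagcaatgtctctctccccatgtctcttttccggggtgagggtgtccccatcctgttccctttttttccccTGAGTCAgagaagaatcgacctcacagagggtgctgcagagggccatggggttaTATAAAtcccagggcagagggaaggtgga
Cd209g (chr8:4134486-4134735, plus strand): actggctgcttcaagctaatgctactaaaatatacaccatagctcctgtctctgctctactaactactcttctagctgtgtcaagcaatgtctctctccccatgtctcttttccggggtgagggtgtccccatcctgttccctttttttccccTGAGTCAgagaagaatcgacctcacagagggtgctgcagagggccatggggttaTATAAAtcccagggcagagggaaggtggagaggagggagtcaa
Cd209b (chr8:3926842-3927091, minus strand): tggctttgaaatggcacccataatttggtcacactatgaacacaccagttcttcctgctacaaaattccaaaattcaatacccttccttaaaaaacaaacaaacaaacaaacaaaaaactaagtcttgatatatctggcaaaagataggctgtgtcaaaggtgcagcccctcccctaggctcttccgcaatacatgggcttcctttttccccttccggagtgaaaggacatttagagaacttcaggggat
Cd209d (chr8:3878500-3878749, minus strand): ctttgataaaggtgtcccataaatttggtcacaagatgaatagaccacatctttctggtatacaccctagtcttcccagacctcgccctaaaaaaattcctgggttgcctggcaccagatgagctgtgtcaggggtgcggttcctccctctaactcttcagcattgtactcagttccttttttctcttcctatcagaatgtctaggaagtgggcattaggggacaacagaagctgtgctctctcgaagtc
Cd209a (chr8:3748985-3749234, minus strand): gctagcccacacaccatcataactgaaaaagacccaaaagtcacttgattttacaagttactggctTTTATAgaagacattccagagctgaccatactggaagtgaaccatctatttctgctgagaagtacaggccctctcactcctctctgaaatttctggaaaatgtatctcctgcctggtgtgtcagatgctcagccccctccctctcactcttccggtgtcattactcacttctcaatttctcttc
Cd209f and Cd209g, which lie on opposite strands, share an unbroken identical run of 154 bases, and 209 of their 231 aligned bases are identical. That run holds both capitalised motifs, with TGAGTCA beginning 83 bases before the start of Cd209f and 97 bases before that of Cd209g, and TATAAA beginning 29 and 43 bases before them. The longest identical run in any other pair of these 5 promoters is 12 bases, between Cd209b and Cd209d. TGANTCA occurs in 6.87% and TATAAA in 13% of the 27025 mouse promoters of the same length, and 7 motifs were searched in the 31 members with a promoter in the table. These matches describe the letters only. The last 500 bases of the Cd209 transcripts share no window of 50 bases with any other gene, so 3′ reads of that length are not shared between Cd209f and Cd209g.

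The 2 libraries held 1517 and 1687 barcodes and 5137671 and 5563521 UMIs (unique molecular identifiers, 1 per captured RNA molecule), with medians of 3065 and 2663 UMIs per barcode and 0 barcode sequences in common. After filters on genes and mitochondrial UMIs and doublet calls, 1445 and 1655 cells were clustered without the family's own genes and named from marker genes, since no deposited cell annotation was used. The 17 clusters gave 11 classes and 1 unnamed cluster of 30 cells. A level in CPM is the UMIs of a gene in 1000000 UMIs of its class and library. Levels are not scaled by gene length because a 3′ library counts 1 end of each molecule. Doublet calls were uneven, with 39 barcodes removed in library 1 and 4 in library 2. Among the 539 myeloid cells, sub-clusters 5 (53 cells) and 8 (12 cells) were led by fibroblast genes such as Col3a1 and Dcn and by endothelial genes such as Cdh5 and Kdr. The fibroblast marker sum of sub-cluster 5 was 9063 and 11973 CPM in libraries 1 and 2, against 207 and 621 CPM in the macrophage-like class. Counts of calls that differ without these cells are given both ways. The classes were built from other genes of the same cells, so the adjusted p-values describe how evenly 2 libraries repeat a difference between classes.

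The family made up 10330 UMIs, 0.0965% of all, and 60.06% of them (6204) were Clec3b, the gene of the plasminogen-binding protein tetranectin. Of the 37 members 29 had a UMI, 21 had at least 50 UMIs and 8 had between 1 and 49. The remaining 8 (Clec4f, Clec2g, Clec4b2, Clec2h, Clec4a4, Clec2e, Clec3a and Clec18a) were at 0 UMIs in both libraries, which allows a level of up to 0.280 CPM over all barcodes. Of the 21 members with at least 50 UMIs, 10 were highest in macrophage-like cells, 4 in monocyte-like cells and 1, Cd209a, in dendritic-like cells. Among the others Clec1a and Clec14a were highest in endothelial-like cells, Clec3b in fibroblast-like, Clec11a in mesothelial-like, Clec2i in B-like and Clec16a in pericyte-like cells. For 15 of the 21 the highest class exceeded the second in both libraries.

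**Figure D1:**
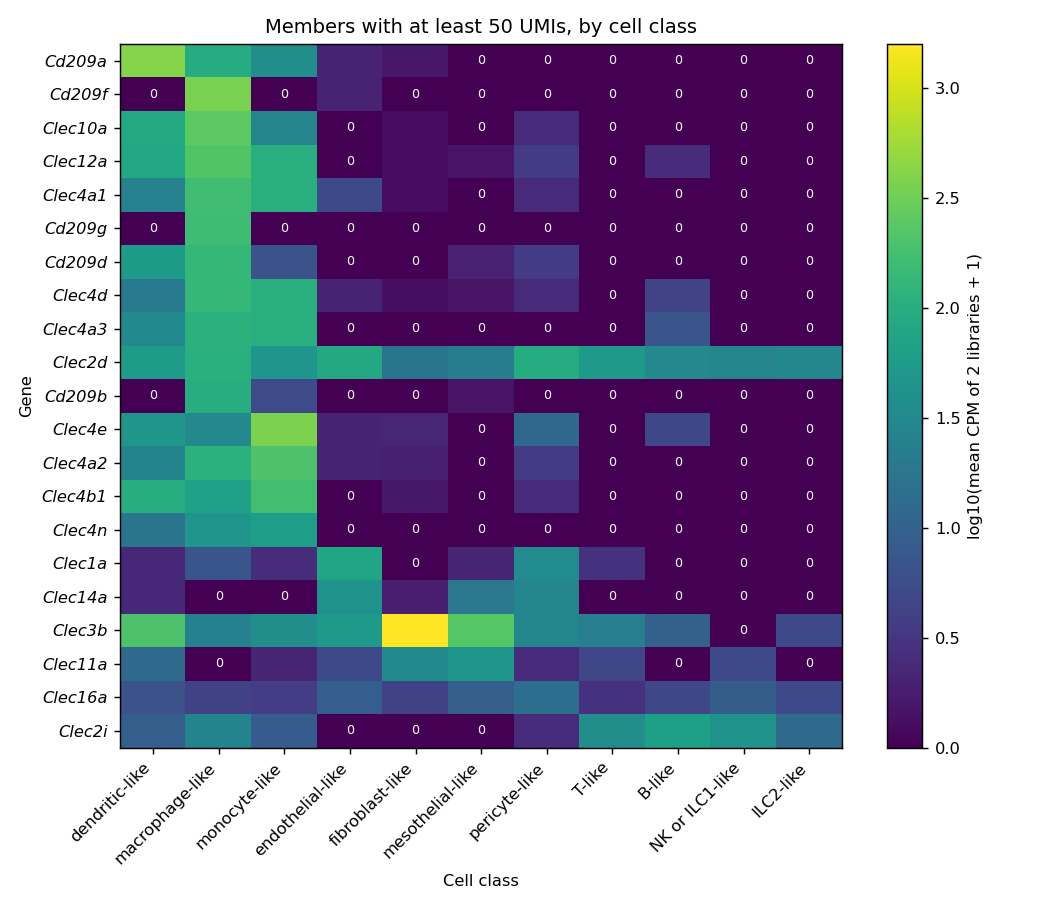
Level of the 21 members with at least 50 UMIs (rows) in 11 cell classes (columns), as log10 of the mean CPM of 2 libraries plus 1, with 0 written where no UMI was counted. There, 15 rows are highest in a myeloid column, while Clec3b is highest in fibroblast-like cells and Clec2d has UMIs in every class.

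The macrophage-like cells carried the most family RNA, 2232 and 2129 CPM in libraries 1 and 2, spread over 23 and 22 members, of which Cd209f alone gave 18.92% and 14.1% of the UMIs. In fibroblast-like cells the family summed to 1921 and 1380 CPM, but 96.85% and 95.69% of it was Clec3b. Monocyte-like cells had 1390 and 1388 CPM, led by Clec4e with 28.34% and 24.87% of the family UMIs, and dendritic-like cells 1396 and 1099 CPM, led by Cd209a with 41.43% and 22.76%. In the lymphoid classes the sum was between 43.65 and 130.6 CPM and was mostly Clec2d and Clec2i.

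Myeloid cells (macrophage-, monocyte- and dendritic-like together) were compared with lymphoid and stromal cells. Only 20 of the 37 members had enough counts to be tested, most of them through their myeloid counts, and a member that passed the filter through 1 class alone had to differ. The counts and medians below therefore describe these 20 and support nothing about the family. Of these 20, edgeR called 16 higher and 1 lower in myeloid over lymphoid cells, where 23.5% of 9381 genes were called higher and 17.4% lower. In myeloid over stromal cells (fibroblast-, mesothelial- and pericyte-like) 16 were called higher and 3 lower, against 25.7% and 25.4% of the same genes. Called higher in both were Clec2d, Clec4a1, Clec4a2, Clec4a3, Clec4b1, Clec4d, Clec4e, Clec4n, Clec10a, Clec12a, Cd209a, Cd209b, Cd209d, Cd209f and Cd209g. Clec3b was called higher over lymphoid and lower over stromal cells, Clec2i lower over lymphoid and higher over stromal cells, and Clec11a and Clec14a lower over stromal cells. The median log2 fold change of the 20 was 8.06 over lymphoid cells and 7.25 over stromal cells, whereas over all genes it was 0.07 and -0.00. Of the 15 members highest in a myeloid class, all but Clec2d had between 95.58% and 100% of their UMIs of the 4 compartments in myeloid cells, and Clec2d had 32.41%. With DESeq2's Wald test in place of edgeR 9 and 12 members were called in either direction, against 17 and 19. The share of all genes that DESeq2 called is not given here.

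The Cd209 genes divided by cell class. Cd209f, whose product has no well described ligand, had 422 and 300.2 CPM in macrophage-like cells and 0 UMIs in monocyte-like cells of either library. It was at least 42.9-fold higher in macrophage-like cells, taking 3 UMIs per library as the limit of a count of 0. Of its 236 UMIs in the named classes 235 lay in macrophage-like cells. It passed the filter through that class alone, so its call (edgeR adjusted p = 2.44e-13) was bound to follow. Cd209g had 161 and 160.3 CPM in macrophage-like cells and again 0 UMIs in monocyte-like cells, at least 16.7-fold higher. All 103 of its UMIs in the named classes lay in macrophage-like cells, so its call (edgeR adjusted p = 1.59e-08) was bound to follow as well. Cd209f and Cd209g were both absent from the counts of monocyte-like and dendritic-like cells. Cd209b, which lacks their shared promoter run, also had no UMI in dendritic-like cells, and a link to the promoters was not tested.

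Cd209b, known as SIGNR1 and able to bind bacterial and fungal polysaccharides, had 106 and 92.1 CPM in macrophage-like cells, against 6.41 and 2.33 CPM in monocyte-like cells (log2 fold change 4.55 ± 0.72 SE, edgeR adjusted p = 1.35e-05). Of its 68 UMIs in the named classes 64 lay in macrophage-like cells. It passed the filter through them alone, so its call too was bound to follow. Cd209d had 115 and 154 CPM in macrophage-like cells, against 6.41 and 4.66 CPM in monocyte-like cells (log2 fold change 4.60 ± 0.61 SE, with adjusted p = 4.06e-07). The library values of the 2 classes did not overlap for any of these 4 genes, in a comparison where 9.88% of all genes tested were called higher. Cd209d was also present in dendritic-like cells, at 76.5 and 31.9 CPM.

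Cd209a, a marker of dendritic and monocyte-derived cells, ran the other way. Its level was 578 and 250.04 CPM in dendritic-like cells, against 103 and 88.7 CPM in macrophage-like cells (log2 fold change 1.97 ± 0.25 SE, edgeR adjusted p = 1.09e-07). Monocyte-like cells had 32.0 and 42.0 CPM, lower again (log2 fold change 3.28 ± 0.29 SE for dendritic-like over monocyte-like, adjusted p = 3.31e-10). Within the dendritic-like class the gene was uneven. Cluster 14, led by Ccl17 and Ccl22, had 1075 and 446 CPM. Cluster 15, with Xcr1 and the cell cycle genes Top2a and Mki67 among its leading genes, had 54.6 and 95.2 CPM. Macrophage-like cells exceeded monocyte-like cells for Cd209a (log2 fold change 1.31 ± 0.39 SE, adjusted p = 0.0154), but this turned to -1.03 (adjusted p = 0.00183) when the clustering resolution was 0.5, a setting with no dendritic class. The 2 remaining Cd209 genes were sparse, with 9 UMIs of Cd209c and 5 of Cd209e in all.

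Thinned to 1000 UMIs per cell, 50 of 238 macrophage-like cells had a Cd209f UMI (21.0%, exact 95% interval 16.01 to 26.7%), with 11 shallower cells left out, and 0 of 223 B-like cells did, which allows a share of up to 1.35%. Without thinning 29.7% of macrophage-like cells had one, at a median of 2644 UMIs per cell, against 0 of 235 B-like cells at a median of 1831 UMIs. Of the 122 and 127 macrophage-like cells in libraries 1 and 2, 38 and 36 had a Cd209f UMI, 29 and 29 a Cd209g UMI, and 23 and 21 both. The cells with both were 18.9% and 16.5%, where independent detection would give 7.40% and 6.47%. Such counts cover counting error only.

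**Figure D2:**
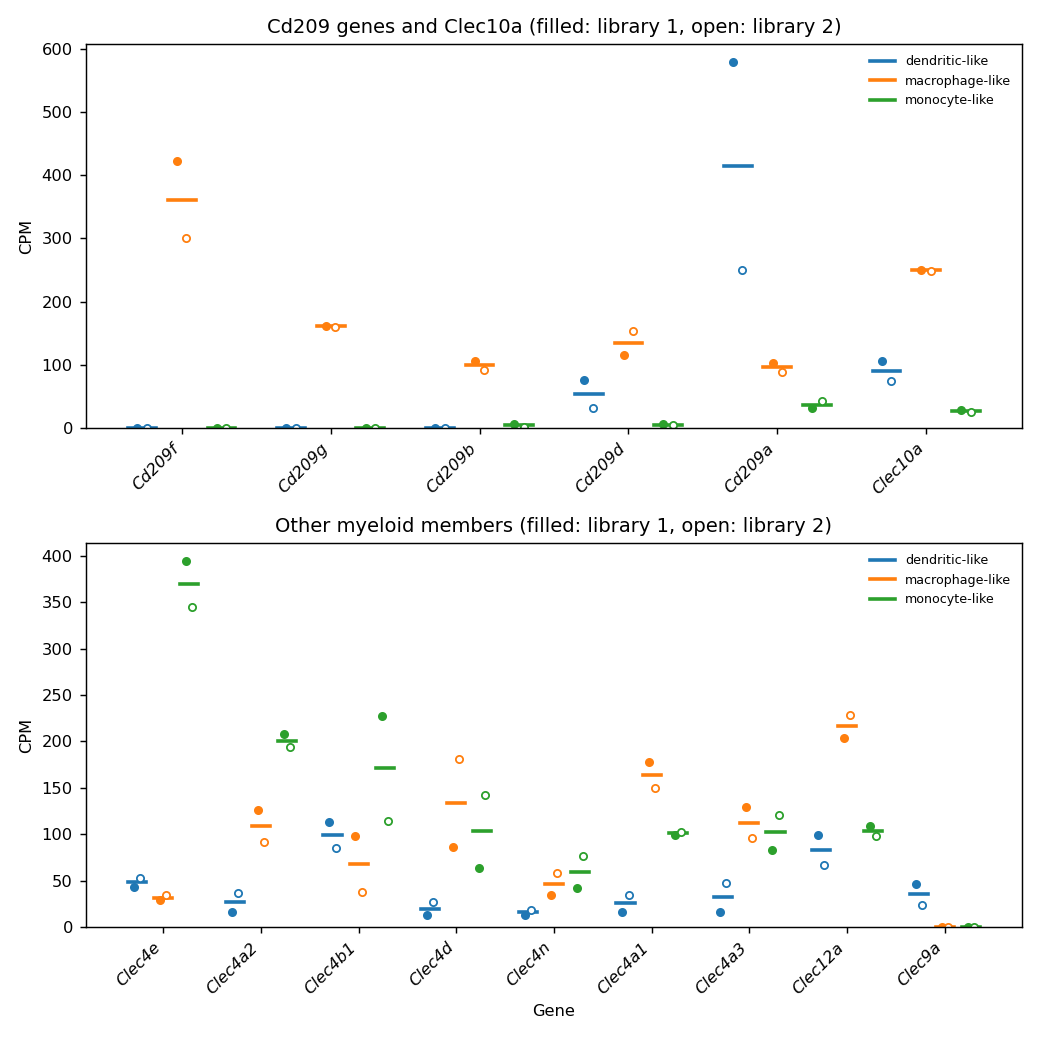
CPM of Cd209 genes and Clec10a (top) and of other myeloid members (bottom) in dendritic-like, macrophage-like and monocyte-like cells, with a line at the mean of 2 libraries and 1 point per library. Cd209f, Cd209g, Cd209b and Cd209d are highest in macrophage-like cells, Cd209a in dendritic-like cells, and Clec4e in monocyte-like cells, where its points are at 394 and 345 CPM.

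Clec10a, a receptor for galactose and N-acetylgalactosamine on macrophages and dendritic cells, followed the Cd209 genes of macrophage-like cells. It had 249.9 and 249 CPM in macrophage-like cells, against 28.8 and 25.7 CPM in monocyte-like cells (log2 fold change 3.22 ± 0.32 SE, edgeR adjusted p = 1.05e-09). Dendritic-like cells lay between these classes at 106 and 74.5 CPM, lower than macrophage-like cells (log2 fold change -1.58 ± 0.26 SE, with adjusted p = 9.76e-06) and higher than monocyte-like cells (1.64 ± 0.38 SE, adjusted p = 0.00238). Its 3′ end shares 15.6% of 50-base windows with its neighbour Mgl2, so part of its reads may be assigned to either gene or to none. Mgl2 showed the same order, at 882 and 740.3 CPM in macrophage-like cells, 336 and 144 CPM in dendritic-like cells and 131 and 67.6 CPM in monocyte-like cells.

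In macrophage-like over monocyte-like cells as a whole, 8 of the 20 tested members were called higher (Cd209f, Cd209g, Cd209b, Cd209d, Cd209a, Clec10a, Clec12a and Clec2d), where 9.88% of 7503 genes were, and 3 were called lower (Clec4e, Clec4b1 and Clec4a2), where 8.56% were. Among those called higher, Cd209f, Cd209g and Cd209b passed the filter through macrophage-like cells alone, so the count describes these 20 members only. The members tested but not called with the most UMIs were Clec3b, Clec4a1, Clec11a and Clec4d.

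Clec4e, also called Mincle, a receptor for the mycobacterial cord factor and for products of dead cells, was the leading member in monocyte-like cells. It had 28.7 and 34.1 CPM in macrophage-like cells, against 394 and 345 CPM in monocyte-like cells (log2 fold change -3.50 ± 0.32 SE, edgeR adjusted p = 7.26e-11). Dendritic-like cells had 43.2 and 53.2 CPM and were likewise lower than monocyte-like cells (log2 fold change -2.97 ± 0.28 SE, with adjusted p = 7.63e-10). After thinning to 1000 UMIs, 40 of 161 monocyte-like cells had a Clec4e UMI (24.8%, exact 95% interval 18.4 to 32.3%), against 1 of 967 fibroblast-like cells, and without thinning the shares were 56.7% and 0.403% at median depths of 4344 and 3393.5 UMIs.

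Clec4d, which pairs with Clec4e, did not share this pattern. It had 86.2 and 181 CPM in macrophage-like cells and 64.1 and 142 CPM in monocyte-like cells, ranges that overlap (log2 fold change 0.41 ± 0.29 SE, adjusted p = 0.377). In both classes library 2 was above library 1. Clec4n, a receptor for fungal mannans, had 34.5 and 58.0 CPM in macrophage-like cells and 41.6 and 77.0 CPM in monocyte-like cells, which also overlap (adjusted p = 0.715). Dendritic-like cells were low in both, with 13.3 and 26.6 CPM of Clec4d and 13.3 and 18.6 CPM of Clec4n.

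Among the inhibitory receptors and their neighbours the order differed from gene to gene. Clec4a2, which carries an inhibitory motif and dampens myeloid activation, had 126 and 92.1 CPM in macrophage-like cells, against 208 and 194 CPM in monocyte-like cells (log2 fold change -0.81 ± 0.28 SE, edgeR adjusted p = 0.0389). That call was lost under 7 of the other settings, where the value was 0.058 at resolution 0.5 and the model without the library block gave adjusted p = 0.0674. Clec4b1, an activating receptor from the same gene group, had 97.7 and 37.5 CPM in macrophage-like cells, against 227 and 114 CPM in monocyte-like cells (log2 fold change -1.26 ± 0.31 SE, with adjusted p = 0.00326). The 3′ ends of Clec4b1 and Clec4a2 share 12.9% and 8.96% of their 50-base windows with other members of the group. Part of their reads may thus be assigned to another gene or to none, and the share of reads affected was not measured.

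Clec4a1 had 178 and 150.1 CPM in macrophage-like cells and 99.3 and 103 CPM in monocyte-like cells, apart in both libraries but short of the threshold (adjusted p = 0.081). Clec4a3 had 129 and 95.5 CPM in macrophage-like cells and 83.3 and 121 CPM in monocyte-like cells, which overlap. Clec12a, an inhibitory receptor for uric acid crystals, had 204 and 229 CPM in macrophage-like cells, against 109 and 97.9 CPM in monocyte-like cells (log2 fold change 1.10 ± 0.25 SE, with adjusted p = 0.00127).

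Reclustering of the 539 myeloid cells, again without the family's genes, split both the macrophage-like and the monocyte-like cells, and the values below are descriptions with no test. Sub-clusters 0 (115 cells, with Fcna and Folr2 among its leading genes) and 1 (109 cells, led by Ccl12 and Ch25h) both carried tissue macrophage markers. Cd209f was 732 and 515 CPM in sub-cluster 0 and 164 and 113 CPM in sub-cluster 1. Cd209g, Cd209d and Clec10a were also higher in sub-cluster 0 in both libraries, with Cd209d at 229 and 299.8 CPM there and 30.4 and 24.2 CPM in sub-cluster 1. Clec12a ran the other way, at 137 and 123 CPM in sub-cluster 0 and 298 and 355 CPM in sub-cluster 1.

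The monocyte-like sub-clusters differed in Clec4e, Clec4n and Clec4a1. Sub-cluster 2 (79 cells, led by Lyz1 and Ear2) had 318 and 199 CPM of Clec4e, and sub-cluster 3 (64 cells, led by Arg1 and Chil3) had 769.9 and 570.3 CPM. Clec4n was 4.90 and 17.1 CPM in sub-cluster 2 and 201 and 154 CPM in sub-cluster 3. Clec4a1 followed the same order, at 44.1 and 28.5 CPM and at 201 and 192 CPM. Clec4a2 did not, with 186 and 216 CPM in sub-cluster 2 and 184 and 225 CPM in sub-cluster 3.

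**Figure D3:**
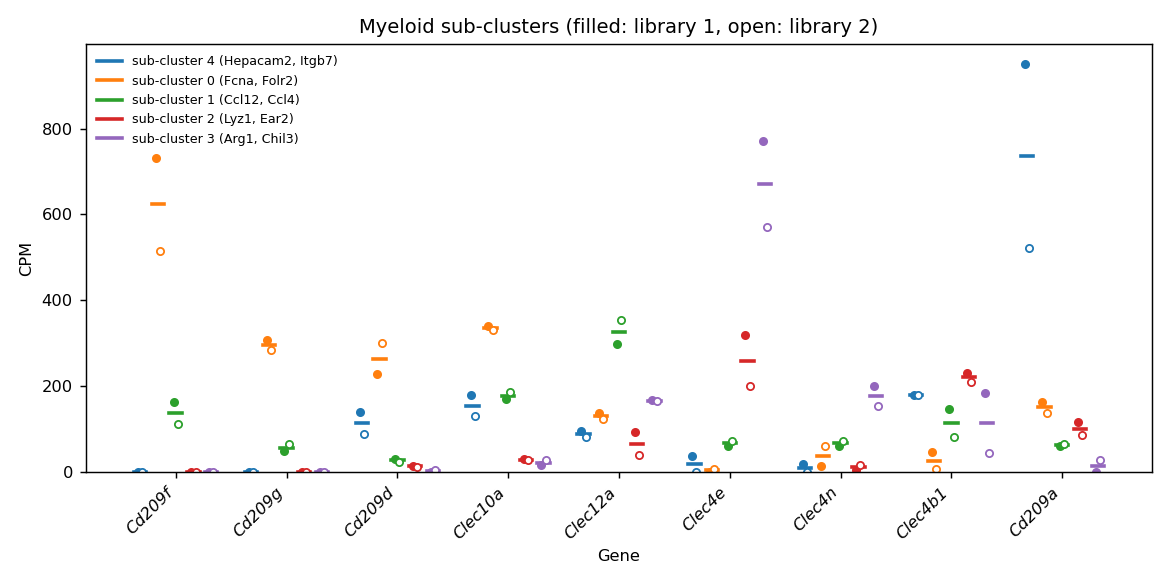
CPM of 9 members in 5 myeloid sub-clusters, with a line at the mean of 2 libraries and 1 point per library. Cd209f, Cd209g and Cd209d are highest in sub-cluster 0, Clec12a in sub-cluster 1, Clec4e and Clec4n in sub-cluster 3 and Cd209a in sub-cluster 4.

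Dendritic-like cells were low in most Clec4 genes and had no UMI of Cd209f, Cd209g or Cd209b. Those Cd209 genes passed the filter through macrophage-like cells alone, so their calls below were bound to follow. Compared with macrophage-like cells, 3 members were called higher (Cd209a, Clec3b and Clec11a) and 12 lower, where 13.3% and 11.8% of 7503 genes were called. The lower ones were Cd209f, at least 37.6-fold, Cd209g, at least 16.1-fold, Cd209b, at least 10.7-fold, and Clec4a1, Clec4a2, Clec4a3, Clec4d, Clec4n, Clec12a, Clec10a, Clec2d and Cd209d, with log2 fold changes between -2.82 and -1.05. Compared with monocyte-like cells, 4 were called higher (Cd209a, Cd209d, Clec10a and Clec3b) and 6 lower (Clec4a1, Clec4a2, Clec4a3, Clec4n, Clec4d and Clec4e), where 8.82% and 6.2% of genes were called. Clec4b1 had 113 and 85.1 CPM in dendritic-like cells and 97.7 and 37.5 CPM in macrophage-like cells and was not called in either comparison.

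The Clec3b and Clec11a values moved with the fibroblast markers of the class. Clec3b had 179.5 and 221 CPM in dendritic-like cells, against 8.62 and 40.9 CPM in macrophage-like cells, and the fibroblast marker sum was 3800 and 6134 CPM, against 207 and 621 CPM. Cluster 14 had 12.96 and 12.1 CPM of Clec3b, and cluster 15 had 355 and 386 CPM. Without sub-clusters 5 and 8, Clec3b was no longer called in dendritic-like cells over macrophage-like cells (adjusted p = 0.304) or over monocyte-like cells (0.178), and Clec11a no longer over macrophage-like cells (1). Clec3b also lost its call in myeloid over lymphoid cells, where the log2 fold change turned to -0.47 (main value 2.88). The count over macrophage-like cells was then 3 higher and 9 lower, with Clec4b1 (log2 fold change 1.14, adjusted p = 0.0160) and Clec9a called higher and Cd209d, Clec2d and Clec4n no longer called. Over monocyte-like cells it was 4 higher and 6 lower, with Clec9a in place of Clec3b. The shares of all genes called without these sub-clusters are not given here, so these counts show nothing particular to the members.

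Clec9a, the receptor for actin of dead cells that marks the cross-presenting conventional dendritic cells, had 26 UMIs in all and was not tested with all myeloid cells included. Its level was 46.5 and 23.9 CPM in dendritic-like cells, against 0 UMIs in macrophage-like and monocyte-like cells of both libraries. Without sub-clusters 5 and 8 it passed the filter through the dendritic-like class alone, so the calls it then had were bound to follow. It overlaps Clec1b on the same strand and shares 3.02% of its 50-base windows with it. In sub-cluster 4 (62 cells, with Klrb1b, Hepacam2 and Itgb7 among its leading genes) Clec9a was 57.3 and 49.0 CPM and Cd209a 949 and 523 CPM. In the dendritic-like class of libraries 1 and 2, 21 and 30 cells had a Cd209a UMI, 7 and 9 a Clec9a UMI, and 0 of 48 and 1 of 78 cells both. Xcr1, another gene of cross-presenting cells, was 44.6 and 89.8 CPM in sub-cluster 4. That sub-cluster met the marker count for this type, with 5 of 9 markers raised where at least 3 were needed. It was left unnamed here because none of its 10 leading genes was a marker of that type while Cd209a was among them. This further condition was not part of the naming rule. Sub-cluster 1 and the fibroblast-like clusters 1, 2 and 4 were named although none of their leading genes was a marker of their type.

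Of 17 genes through which these receptors signal 15 were tested. In myeloid over stromal cells 13 were called higher and none lower, where 25.7% and 25.4% of all genes tested were. In myeloid over lymphoid cells 7 were higher (Fcer1g, Tyrobp, Prkcd, Plcg2, Vav3, Bcl10 and Syk) and 2 lower (Hcst and Inpp5d), where 23.5% and 17.4% of all genes were, and 8 were higher without sub-clusters 5 and 8. The adaptor Fcer1g had 2502 and 2023 CPM in macrophage-like cells and 2002 and 1873 CPM in monocyte-like cells, and Syk had 121 and 150.1 CPM and 157 and 166 CPM. In macrophage-like over monocyte-like cells none of the 15 was higher and 2 were lower, Malt1 (log2 fold change -3.13, edgeR adjusted p = 2.29e-06) and Plcg2 (-2.29, adjusted p = 0.00124). Of all genes tested there, 9.88% were called higher and 8.56% lower. Malt1 had 11.5 and 6.82 CPM in macrophage-like cells, against 99.3 and 74.6 CPM in monocyte-like cells. Card9 was near the counting limit, with 2 UMIs in macrophage-like cells and 4 in monocyte-like cells. In dendritic-like over macrophage-like cells 1 was higher (Malt1) and 4 lower (Fcer1g, Bcl10, Hcst and Syk), and 3 were lower without sub-clusters 5 and 8. With all myeloid cells, 13.3% of all genes tested were called higher in that comparison and 11.8% lower. In dendritic-like over monocyte-like cells 7 were lower, but 3 (Fcer1g, Bcl10 and Hcst) without those sub-clusters, where Tyrobp, Plcg2, Prkcd and Syk lost their calls. With all myeloid cells, 6.2% of all genes tested were called lower in that comparison. Fcer1g had 901 and 705 CPM in dendritic-like cells.

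Clec2d and Clec2i encode ligands of natural killer cell receptors and had the most UMIs of the family in lymphoid cells, 61 and 72, followed by Clec3b with 18. Clec2d, the ligand of the inhibitory receptor Klrb1b, had UMIs in all 11 classes, with its highest mean in macrophage-like cells (89.0 and 126 CPM), followed by pericyte-like (72.8 and 116 CPM) and endothelial-like cells (82.7 and 84.5 CPM), whose ranges overlap. Its lowest mean was in fibroblast-like cells, at 9.22 and 23.7 CPM, although in library 2 mesothelial-like cells were lower, at 17.9 CPM. Clec2i had 17.7 and 11.8 CPM in myeloid cells, against 47.0 and 41.8 CPM in lymphoid cells (log2 fold change -1.65 ± 0.35 SE, edgeR adjusted p = 0.00177), and was the single tested member called lower there. It was highest in B-like cells, at 75.3 and 55.3 CPM, and in macrophage-like cells its libraries differed, at 43.1 and 10.2 CPM. Among the receptor genes, Klrb1b was at 241 and 97.8 CPM and Klrb1f, whose product binds Clec2i, at 52.8 and 32.6 CPM in cells resembling natural killer cells or type 1 innate lymphoid cells, which also had 45.2 and 40.8 CPM of Clec2i. Klrb1b was also present in dendritic-like cells, at 139.6 and 101 CPM, and was called higher there than in macrophage-like cells (log2 fold change 5.09, adjusted p = 1.92e-07).

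Clec1a and Clec14a were the endothelial members. Clec1a, a receptor for fungal melanin, had 60.5 and 96.6 CPM in endothelial-like cells, against 3.98 and 4.97 CPM in stromal cells (log2 fold change 4.12 ± 0.34 SE, edgeR adjusted p = 2.61e-07). Clec14a, an endothelial adhesion protein that binds the matrix protein Mmrn2, had 48.4 and 38.2 CPM in endothelial-like cells, against 7.96 and 8.29 CPM in stromal cells (log2 fold change 2.41 ± 0.38 SE, adjusted p = 0.00021). Clec2d was the third member called higher, and Clec3b and Clec11a were called lower, so that 3 of 20 tested members were higher and 2 lower where 18.5% and 17.7% of 9381 genes were. Clec1a and Clec14a passed the filter through endothelial-like cells alone and Clec11a through stromal cells alone, so these calls were bound to follow. The median log2 fold change of the 20 was -0.01 and that of all genes 0.02. Most of the 20 passed the filter through their myeloid counts, so this count and median show no likeness of endothelial-like and stromal cells. The tested members not called with the most UMIs were Cd209a, Clec4e, Clec12a and Clec10a. They had 1, 1, 0 and 0 UMIs in endothelial-like cells and 2, 12, 4 and 2 in stromal cells, so they were near absent from both.

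**Figure D4:**
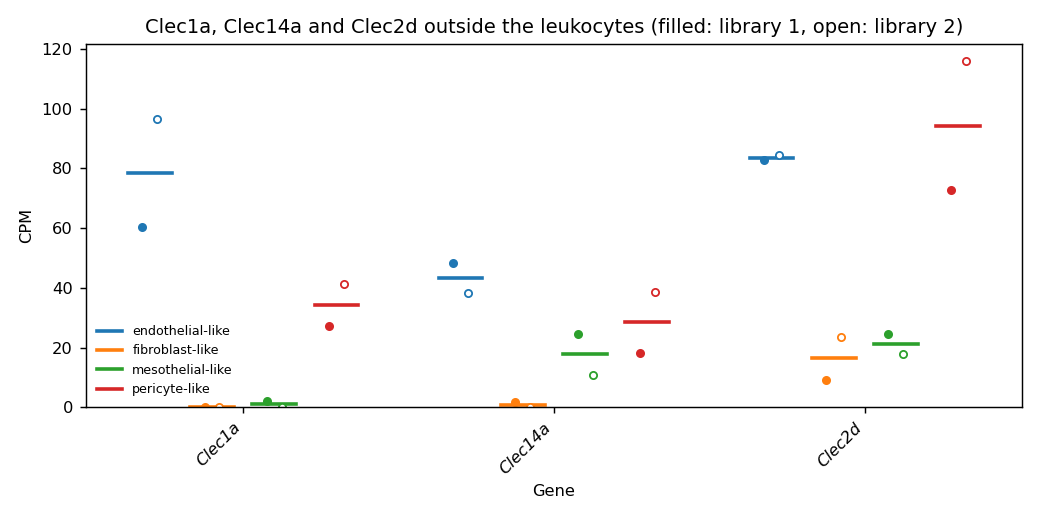
CPM of Clec1a, Clec14a and Clec2d in endothelial-like, fibroblast-like, mesothelial-like and pericyte-like cells, with a line at the mean of 2 libraries and 1 point per library. Clec1a is at 60.5 and 96.6 CPM in endothelial-like cells and has no UMI in fibroblast-like cells, while pericyte-like cells lie between.

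Within the stromal compartment the Clec1a and Clec14a UMIs were mostly outside fibroblast-like cells. Pericyte-like cells had 27.3 and 41.4 CPM of Clec1a and 18.2 and 38.6 CPM of Clec14a. The endothelial marker sum was 10005 and 8127 CPM in endothelial-like cells, against 6705 and 6513 CPM in pericyte-like cells. The part of those endothelial markers in the pericyte-like values was not tested. Mmrn2, the partner of Clec14a, had 335 and 334 CPM in endothelial-like cells and 249 and 279 CPM in pericyte-like cells. Clec14a had 1.73 and 0 CPM in fibroblast-like cells, against 24.5 and 10.9 CPM in mesothelial-like cells, and was called lower (log2 difference -3.70 ± 0.81 SE, adjusted p = 0.000399). The endothelial marker sum was 28.3 and 33.4 CPM in fibroblast-like cells, against 270.0 and 296 CPM in mesothelial-like cells, and its part in this difference was not tested.

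Clec1b, the platelet receptor for podoplanin, had 10 UMIs in all. Its ligand gene Pdpn was plentiful, at 183 and 251 CPM in fibroblast-like cells and 449 and 515 CPM in mesothelial-like cells. The 6 platelet markers summed to between 0 and 19.3 CPM in every class, and the highest Clec1b level was in dendritic-like cells, at 3.32 and 10.6 CPM.

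Clec3b was by far the most abundant member and marked the fibroblast-like cells. It had 1861 and 1320.4 CPM in fibroblast-like cells, against 292 and 168 CPM in mesothelial-like cells. By edgeR this was a log2 difference of 2.97 ± 0.26 (SE, adjusted p = 1.93e-12). A Clec3b UMI was found in 707 of 967 fibroblast-like cells thinned to 1000 UMIs (73.1%, exact 95% interval 70.2 to 75.9%), against 38 of 242 mesothelial-like cells (15.7%, 11.4 to 20.9%). Cells resembling natural killer cells had 0 of 142, which allows up to 2.11%, and B-like cells had 3 of 223. Without thinning the shares were 92.0% in fibroblast-like and 40.6% in mesothelial-like cells at medians of 3393.5 and 6116.5 UMIs, and 2.13% in B-like cells at a median of 1831 UMIs.

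Clec11a, a secreted growth factor of bone marrow stroma that acts on osteogenesis, was the other stromal member. It had 40.9 and 26.1 CPM in fibroblast-like cells and 44.6 and 48.6 CPM in mesothelial-like cells, and was not called (log2 difference -0.38 ± 0.31 SE with adjusted p = 0.39). Thus 1 of 20 tested members was higher (Clec3b) and 1 lower (Clec14a) in fibroblast-like over mesothelial-like cells, where 16.6% and 18.2% of 7503 genes were called. The members tested but not called with the most UMIs were Clec2d, Cd209a, Clec4e and Clec12a. Cd209a, Clec4e and Clec12a had 2, 12 and 4 UMIs in the whole stromal compartment, so their lack of a call shows no likeness of the classes.

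The 2 secreted members differed in how they varied among the 4 fibroblast-like clusters. Clec11a changed across them (edgeR adjusted p = 4.71e-07), with 106 and 67.3 CPM in cluster 11 (led by Mfap4 and Mgp), 62.2 and 30.4 CPM in cluster 1 (led by Cxcl14 and Inmt), 25.1 and 27.9 CPM in cluster 4 (led by Has1 and Thbs1), and 8.93 and 5.31 CPM in cluster 2 (led by Pi16 and Krtdap). Clec3b was between 1086.5 and 1998 CPM in every cluster and library and did not pass the test (adjusted p = 0.172), nor did Clec2d (0.641). These 3 were the members with enough counts to test there, and 24.4% of 5719 genes passed, a share that includes the genes that defined the clusters. In 3 of the 4 clusters library 1 exceeded library 2 for Clec3b by more than the clusters differed in their means.

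**Figure D5:**
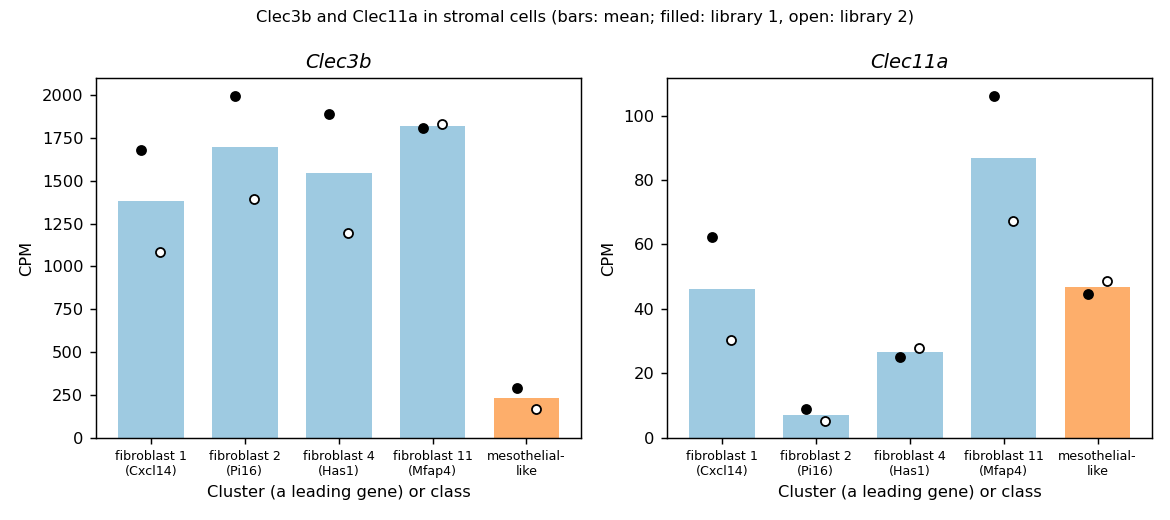
CPM of Clec3b (left) and Clec11a (right) in 4 fibroblast-like clusters and in mesothelial-like cells, as bars at the mean of 2 libraries with 1 point per library. Clec3b is above 1000 CPM in all 4 clusters and below 300 CPM in mesothelial-like cells, while Clec11a is at 106 and 67.3 CPM in cluster 11 and at 8.93 and 5.31 CPM in cluster 2.

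Partners of the secreted members differed in where they were found. Itga11, an integrin chain that binds Clec11a, had 53.0 and 44.9 CPM in fibroblast-like cells, and Plat, an activator of the plasminogen that Clec3b binds, had 257 and 236 CPM there and 404 and 403 CPM in mesothelial-like cells. Itgb1, the integrin chain that pairs with Itga11, had UMIs in all 11 classes, with 492 and 392 CPM in endothelial-like cells and 303 and 248 CPM in fibroblast-like cells. Plg, the gene of plasminogen, had 1 UMI in these classes. Of 11 partner genes 8 were tested. Fibroblast-like over mesothelial-like, 1 was higher (Itga11) and 3 lower (Pdpn, Plat and Mmrn2), where 16.6% and 18.2% of all genes tested were. Itga11 passed the filter through fibroblast-like cells alone, so its call over mesothelial-like cells was bound to follow. In endothelial-like over stromal cells 2 were higher (Mmrn2 and Itgb1) and 3 lower, where 18.5% and 17.7% of all genes were. In myeloid over stromal cells 1 was higher (Klrb1b) and 4 lower, or 5 lower without sub-clusters 5 and 8, where 25.7% and 25.4% of all genes were. The lower calls of both these comparisons include Itga11, which passed the filter through stromal cells alone, so these Itga11 calls were bound to follow. In dendritic-like over macrophage-like cells 4 were higher (Pdpn, Klrb1b, Plat and Itga11), of which Klrb1b alone was called without sub-clusters 5 and 8. With all myeloid cells, 13.3% of all genes tested were called higher in that comparison.

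Of 43 other genes with C-type lectin domains 22 were tested. In macrophage-like over monocyte-like cells 6 were higher (Mrc1, Mgl2, Cd93, Thbd, Colec12 and Cd302) and 2 lower (Vcan and Klrk1). Of all genes tested there, 9.88% were called higher and 8.56% lower. Mrc1, the macrophage mannose receptor, had 830.1 and 1003 CPM in macrophage-like cells, against 167 and 177 CPM in monocyte-like cells (log2 fold change 2.46, edgeR adjusted p = 3.18e-14). In myeloid over lymphoid cells 10 were higher and 10 lower, where 23.5% and 17.4% of all genes tested were. Without sub-clusters 5 and 8, 7 were higher, and Pla2r1, Mrc2 and Cd248 were no longer among them. In myeloid over stromal cells 8 were higher and 7 lower, where 25.7% and 25.4% of all genes were. Fibroblast-like cells exceeded mesothelial-like cells for 5 of them, including Cd248 (log2 fold change 2.69, edgeR adjusted p = 1.05e-16), and were lower for 2. Of all genes tested in that comparison, 16.6% were called higher and 18.2% lower.

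The remaining members were too sparse for comparison. Clec16a, which has a lectin-derived name but takes part in mitophagy, had 57 UMIs spread over all 11 classes when both libraries are added, with 18.2 and 8.28 CPM in pericyte-like cells. Clec5a, a receptor that signals through Tyrobp, had 21 UMIs, at 25.85 and 10.2 CPM in macrophage-like and 9.61 and 9.33 CPM in monocyte-like cells. The 4 sparsest members with UMIs outside the Cd209 genes were Clec1b with 10, Clec2l with 4, Clec12b with 4 and Clec4g with 2.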

How the data were processed

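Whole mesentery of 2 mice was measured, 1 droplet 3′ RNA library per mouse. The authors deposited raw UMI counts per gene and barcode. Cell Ranger and the mm10 build are named in the submitters' processing notes, and their settings are not given in the sources used here. Members and gene lists were chosen with earlier results of these data known. The rule for named genes was every member called in a comparison, up to 4 tested members not called with the most UMIs, and levels for members with at least 50 UMIs.

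Barcodes with fewer than 200 genes or more than 10% mitochondrial UMIs were left out, and Scrublet doublets were removed per library. Cells were scaled to 10000 UMIs and clustered with scanpy 1.11.5 (python 3.11.15) on 2000 variable genes without the family or the 3 lists, 30 principal components, 15 neighbours and Leiden resolution 1. Myeloid cells were reclustered on 20 components. No deposited annotation was used, so class names are rebuilt from markers. Raw counts were summed per class and library, filtered with filterByExpr and tested with edgeR 4.0.16 in R 4.3.3 (quasi-likelihood test, TMM, library as a block, Benjamini-Hochberg adjustment over all genes tested, threshold 0.05). The block pairs classes taken from the same mouse. The scripts were tested on simulated data. The block takes out the shift between the 2 mice. The p-values therefore measure how evenly class differences repeat in only 2 libraries, with a spread estimate shared by all classes or compartments of a fit. They do not measure the spread between mice, and intervals cover counting error only. Alternatives were DESeq2 1.42.0, its size factors, no filter, no library block, clustering resolutions 0.5 and 2, a stricter cell filter (500 genes, 5% mitochondrial UMIs), no doublet removal, members and the 3 lists in the clustering, each library alone and, chosen after seeing the data, myeloid cells without sub-clusters 5 and 8. A planned comparison of dendritic subtypes was not run because no sub-cluster could be named for both.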

Additional observations from a re-analysis of the deposited data

Results flagged for a closer look

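Family UMIs were also counted in cells and barcodes that entered no comparison. The unnamed cluster of 30 cells held 108 UMIs of Clec3b (779 CPM), 6 of Clec2d, 6 of Clec11a and 4 of Clec2i, each above the limit of 21.6 CPM that a count of 0 allows there. The 104 barcodes removed by the filters and doublet calls held over 3 UMIs of 14 members, among them 125 UMIs of Clec3b and 27 of Clec2d.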

How the results depend on the processing

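Of 79 results in which a member was called, 41 stayed called in the same direction under every alternative with a test, and all 79 had the same sign in each library taken alone, where no test was possible. Of 61 results not called, 11 became called under some alternative. DESeq2's Wald test lost 32 of the 79 calls and counted 9 members in myeloid over lymphoid cells (17 in the main analysis), 12 in myeloid over stromal (19), 5 in macrophage-like over monocyte-like (11), 8 in dendritic-like over macrophage-like (15) and 1 in fibroblast-like over mesothelial-like cells (2); the cause was not tested. With the members allowed into the clustering, 6 were called in fibroblast-like over mesothelial-like cells and 4 among the fibroblast-like clusters (1 in the main analysis), and Clec3b reversed to -1.11 in myeloid over lymphoid and to -1.79 in dendritic-like over monocyte-like cells. Without sub-clusters 5 and 8, Clec3b was -0.47 in myeloid over lymphoid cells. At resolution 0.5, Cd209a was -1.03 and Clec4a2 was 0.058 in macrophage-like over monocyte-like cells, and no dendritic class formed, so its comparisons have no value there. The model without the replicate block called 17, 19, 5, 10, 14, 10 and 2 members in the 7 comparisons and 1 among the fibroblast-like clusters, losing Clec4a2 in macrophage-like over monocyte-like cells (adjusted p = 0.0674) and Clec4n in dendritic-like over macrophage-like cells (adjusted p = 0.0618), and the pairing by mouse changed no other call. The shares of all genes called under each alternative are not given here, so calls lost or gained cannot be read as particular to the members. Of 84 recomputed levels, 79 moved by less than 1 SD.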
